A study of Mus musculus with 50 samples.

Results

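A segment of mouse chromosome 16 that runs from Mfi2 to Rnf168 holds 10 neighbouring genes with higher RNA counts in ES cells heterozygous for a deletion of Xist Repeat B (RepB+/-) than in homozygous ones (RepB-/-). The 10 genes, Mfi2, Ncbp2, Senp5, Pak2, Pigx, Cep19, Nrros, Fbxo45, Wdr53 and Rnf168, were chosen by that measured difference in counts of all reads, and are 10 of the 24391 genes in the RNA count tables. On build mm9 the listed exons run from 16:31878896 (Mfi2) to 16:32278501 (Rnf168). Because the contrast of RepB+/- with RepB-/- chose the genes, their values in it are a description, with no test. Their levels in RepB+/- against wild type share the RepB+/- libraries with that choice, and those in RepB-/- against wild type share the RepB-/- libraries, so both are also given as a description, with no p-value for the genes and with counts of calls from which nothing is read.

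The RNA part of the study holds 8 libraries of poly(A) RNA. In the ES cells, of CAST/Ei and 129/Sv/Jae background, Xist was wild type (WT), RepB+/- or RepB-/-, with 2 libraries per genotype, and all 6 were harvested after 4 days in suspension as embryoid bodies and 10 days on gelatin. In mouse embryonic fibroblasts (MEF) of the same strain background, 1 library was wild type and 1 lacked Repeat B, without a stated zygosity. Repeat B is a tandem repeat of Xist, the long non-coding RNA that coats the inactive X chromosome, and the study asked how its loss affects Polycomb recruitment and the spreading of Xist. For RepB+/- the labels do not say which allele lost the repeat. How many clones stand behind each genotype is not given in the sources used here, so p-values measure only the spread between these libraries, and a difference between genotypes and a difference between clones cannot be told apart.

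The 10 genes do not form a pathway and are known for separate tasks. Mfi2 encodes melanotransferrin, an iron-binding relative of transferrin held at the cell surface by a lipid anchor. Ncbp2 encodes the small subunit of the nuclear cap-binding complex, Senp5 a protease that removes SUMO from proteins, Pak2 a kinase activated by the small GTPases Rac and Cdc42, Pigx a subunit of the enzyme that adds the first mannose to lipid anchors, and Cep19 a centriole protein needed for cilia. Nrros encodes a membrane protein that holds latent TGF-beta in macrophages and microglia, Fbxo45 a ubiquitin ligase subunit that works with Mycbp2, and Rnf168 a ubiquitin ligase that marks histone H2A at DNA breaks. Wdr53 encodes a protein with WD repeats.

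Promoter windows, from 250 bases before to 50 after a gene's start, were matched for 7 of the 10 genes in RefSeq (build GRCm38.p6), where Mfi2 is listed as Meltf. No window was matched for Ncbp2, Pak2 or Fbxo45. Shown are those of Mfi2 and Nrros, which had the highest fold changes, and the head-to-head pair Pigx and Cep19, whose starts lie 62 bases apart so that their windows share 161 bases. Capitals mark CpG dinucleotides.

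Mfi2, chr16:31878560-31878859, plus strand: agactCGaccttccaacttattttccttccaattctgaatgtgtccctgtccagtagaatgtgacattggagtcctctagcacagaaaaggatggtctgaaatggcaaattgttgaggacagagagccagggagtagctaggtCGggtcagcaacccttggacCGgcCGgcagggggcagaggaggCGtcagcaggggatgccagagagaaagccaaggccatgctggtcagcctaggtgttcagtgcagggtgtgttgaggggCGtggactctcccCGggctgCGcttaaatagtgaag
Nrros, chr16:32165545-32165844, minus strand: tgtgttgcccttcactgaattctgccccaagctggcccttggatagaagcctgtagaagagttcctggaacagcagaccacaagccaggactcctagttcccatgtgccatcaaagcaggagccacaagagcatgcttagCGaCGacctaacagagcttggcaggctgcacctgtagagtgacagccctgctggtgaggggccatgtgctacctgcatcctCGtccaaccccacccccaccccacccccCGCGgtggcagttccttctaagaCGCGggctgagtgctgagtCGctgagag
Pigx, chr16:32099678-32099977, minus strand: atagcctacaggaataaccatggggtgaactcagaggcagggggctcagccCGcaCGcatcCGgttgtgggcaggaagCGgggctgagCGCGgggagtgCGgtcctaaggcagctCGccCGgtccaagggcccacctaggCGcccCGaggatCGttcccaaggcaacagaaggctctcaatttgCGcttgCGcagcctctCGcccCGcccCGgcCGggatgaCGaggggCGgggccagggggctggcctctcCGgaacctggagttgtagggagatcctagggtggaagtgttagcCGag
Cep19, chr16:32099539-32099838, plus strand: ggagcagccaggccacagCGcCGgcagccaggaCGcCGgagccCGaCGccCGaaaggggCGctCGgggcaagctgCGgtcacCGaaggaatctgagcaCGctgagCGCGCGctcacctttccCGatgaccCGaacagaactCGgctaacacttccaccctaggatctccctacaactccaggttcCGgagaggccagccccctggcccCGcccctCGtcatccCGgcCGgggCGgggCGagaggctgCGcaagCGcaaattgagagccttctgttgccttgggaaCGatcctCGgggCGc

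The Mfi2 and Nrros windows each held 8 CpG, against a median of 7 over 32851 RefSeq windows of the same length. The Pigx window held 22 CpG, more than 76.9% of all windows, and the Cep19 window held 30, more than 88.3%. Senp5 had 10, Rnf168 had 14, and both listed starts of Wdr53 had 40. The motif GGGCGG, searched on both strands and allowed to overlap CpG, was found in the windows of Pigx, Cep19, Wdr53 and Rnf168, and in 35.7% of all windows. The motif CCGGAAG, searched in the same way, was found in those of Senp5, Wdr53 and Rnf168, and in 8.86% of all windows. Neither motif was found in the windows of all 7 genes, and their CpG counts ranged from 8 to 40.

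Total counts ran from 8000722 to 28045645 per ES library, the lowest being RepB+/- replicate 2, and were 12126941 and 18631736 in MEF. Levels below are CPM, read counts scaled to the size of each library after TMM normalization, unless given per kb. Xist RNA was between 809 and 1149 CPM in the 6 ES libraries, with overlap between genotypes; counts over the whole RNA do not check a deletion of one repeat. The ES cultures were mixed. Summed over 5 pluripotency markers (Pou5f1, Nanog, Sox2, Zfp42 and Esrrb), they had 108 and 135 CPM in WT, 429 and 323 in RepB+/- and 308 and 285 in RepB-/-, with no marker at 0. Summed over 9 fibroblast markers, they had 16940 to 31940 CPM, against 39050 and 32980 in MEF. Most of these sums came from Col1a1, Col1a2 and Col3a1. The listed markers Dcn, Lum and Fbln1 went the other way and were lower in both MEF libraries than in each ES library. Dcn had 172 to 394 CPM in ES cells and 3.19 and 0.257 in MEF, and Lum 163 to 259 and 0.431 and 0. The sum over 5 cardiac markers was 416 and 468 CPM in WT, 196 and 215 in RepB+/-, and 138 and 151 in RepB-/-. That over 5 endoderm markers was 231 and 233 CPM in WT, 655 and 560.2 in RepB+/-, and 518 and 458 in RepB-/-. Over 5 cartilage markers the sum was 36.7 and 42.2 CPM in WT, 46.4 and 57.6 in RepB+/-, and 37.7 and 43.7 in RepB-/-. In MEF it was 1526 and 2205 CPM, mostly Col2a1. Sums of pluripotency, cardiac, endoderm and cartilage markers were thus higher in both RepB+/- libraries than in both RepB-/- libraries. So were the 10 genes, and 17.4% of all genes tested. The fibroblast sums overlapped, as did the single markers Pou5f1, Nanog, Zfp42, Ttr, Acan and Comp. The part of this cell mixture in the results below was not tested. In bulk RNA, fewer cells of a type and less RNA per cell cannot be told apart.

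Per kb of exon, the 10 genes spanned a wide range in WT ES cells. Pak2 (22.8 CPM per kb) and Pigx (22.4) were highest and overlapped between libraries, followed by Ncbp2 (18.0), Senp5 (11.4) and Cep19 (8.32). Rnf168 (5.96) and Wdr53 (5.70) overlapped each other, and Fbxo45 (4.55), Nrros (3.03) and Mfi2 (1.55) came last, without overlap. In RepB+/- Mfi2 stood seventh, at 10.1 CPM per kb, and overlapped the libraries of Rnf168 and Wdr53, its neighbours in that order.

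**Figure D1:**
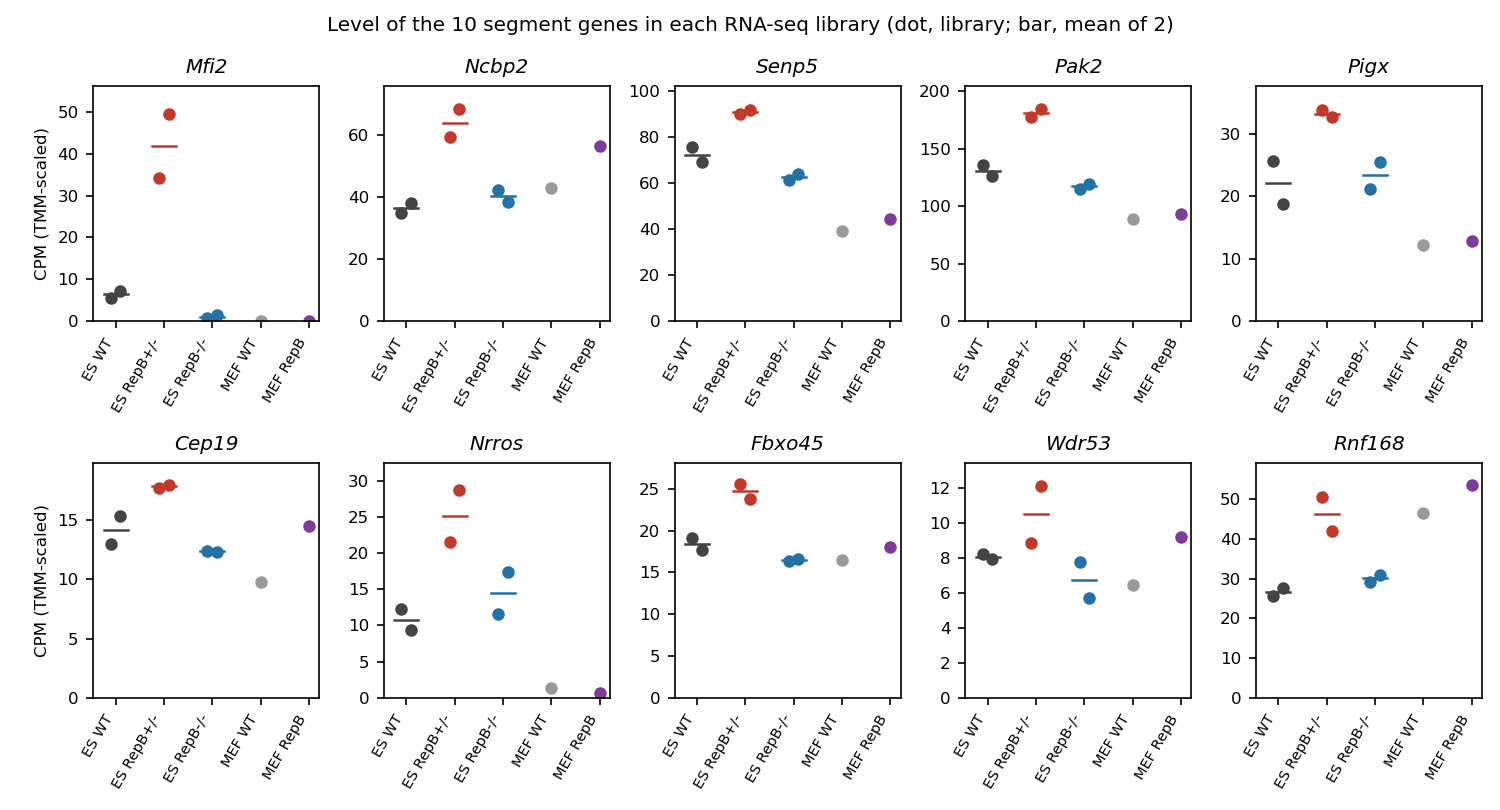
CPM of the 10 genes in each library (dots), with the mean of the 2 ES libraries per genotype (bars), each panel on its own axis from 0. In each panel both RepB+/- libraries lie above the other 4 ES libraries, and for Mfi2 they reach 34.2 and 49.5 CPM.

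Each of the 10 genes was higher in both RepB+/- libraries than in both RepB-/- libraries. The median log2 fold change was 0.61, a 1.52-fold difference, and without Mfi2 it was 0.59, with the 9 genes between 0.51 and 0.77. Across all 15149 genes tested the median was 0.01. Such a separation of both libraries above both occurred in 17.4% of genes tested. By edgeR's quasi-likelihood test with Benjamini-Hochberg adjustment, 3 of the 10 (Mfi2, Pak2 and Ncbp2) were called higher, where 0.066% of genes tested were called higher (10 genes) and 0.0198% lower (3 genes). Since this contrast chose the genes, nothing is read from these counts. The number called was 1 without WT replicate 1, without WT replicate 2, without RepB-/- replicate 1 and without RepB-/- replicate 2.

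The transferrin relative Mfi2 stood apart from the other 9. It was at 5.68 and 7.12 CPM in WT, at 34.2 and 49.5 in RepB+/- and at 0.794 and 1.42 in RepB-/-. The 3 genotypes did not overlap, with RepB+/- highest and RepB-/- lowest. Between RepB+/- and RepB-/- the log2 fold change was 5.26 (SE 0.26, 38.2-fold), and between RepB+/- and WT it was 2.70 (SE 0.22, 6.52-fold).

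Of the genes for RNA and protein modification, Ncbp2 had 34.9 and 38.3 CPM in WT, 59.6 and 68.6 in RepB+/-, and 42.4 and 38.4 in RepB-/-. Its log2 fold change was 0.66 (SE 0.12) over RepB-/- and 0.80 (SE 0.12) over WT. The SUMO protease gene Senp5 had 75.7 and 69.2 CPM in WT, 90.1 and 92.0 in RepB+/-, and 61.2 and 64.0 in RepB-/-, a log2 fold change of 0.54 (SE 0.10) over RepB-/-. Senp5 was thus lowest in RepB-/- and Ncbp2 lowest in WT, but by small differences. The log2 fold change of RepB-/- over WT was 0.14 (SE 0.12) for Ncbp2 and -0.21 (SE 0.10) for Senp5. For the ubiquitin ligase genes Rnf168 and Fbxo45 it was 0.18 (SE 0.13) and -0.16 (SE 0.14). None of these was called by edgeR, so no difference in order between the genes is read from them. Rnf168 had 25.6 and 27.6 CPM in WT, 50.6 and 42.0 in RepB+/-, and 29.3 and 31.0 in RepB-/-, and its log2 fold change over RepB-/- was 0.63 (SE 0.12). Fbxo45 had 19.1 and 17.7 CPM in WT, 25.6 and 23.8 in RepB+/-, and 16.4 and 16.6 in RepB-/-, a log2 fold change of 0.59 (SE 0.13).

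The kinase gene Pak2 was the most deeply counted of the 10. It had 135.8 and 126.5 CPM in WT, 178.2 and 184.8 in RepB+/-, and 115.2 and 119.6 in RepB-/-. Its log2 fold change was 0.63 (SE 0.10) over RepB-/- and 0.47 (SE 0.10) over WT. For the lipid anchor gene Pigx the values were 25.7 and 18.7 CPM in WT, 33.8 and 32.7 in RepB+/-, and 21.2 and 25.5 in RepB-/-, with overlap between WT and RepB-/-. Cep19, which shares its start region with Pigx as shown above, had 12.9 and 15.4 CPM in WT, 17.7 and 18.0 in RepB+/-, and 12.4 and 12.3 in RepB-/-. Over RepB-/- the pair had similar log2 fold changes, 0.51 (SE 0.15) for Pigx and 0.53 (SE 0.15) for Cep19. Over WT they were 0.57 (SE 0.16) and 0.34 (SE 0.16).

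The macrophage gene Nrros was at 12.2 and 9.33 CPM in WT, at 21.5 and 28.7 in RepB+/-, and at 11.6 and 17.3 in RepB-/-. Its log2 fold change was 0.77 (SE 0.20) over RepB-/- and 1.17 (SE 0.21) over WT, the highest of the 10 after Mfi2. Summed over the 7 listed macrophage markers in the tables, the libraries had 151 and 146 CPM in WT, 196 and 245 in RepB+/-, and 214 and 274 in RepB-/-, with no marker at 0. This sum did not separate RepB+/- from RepB-/-. Of the single markers, Aif1 was higher in both RepB+/- libraries than in both RepB-/- libraries, Cd68 was lower, and the rest overlapped. The part of these markers in the Nrros values was not tested. Wdr53, the least counted of the 10 in WT after Mfi2, had 8.21 and 7.97 CPM in WT, 8.88 and 12.2 in RepB+/-, and 7.80 and 5.71 in RepB-/-. Its lower RepB+/- library lay close to WT, and its log2 fold change over WT was 0.33 (SE 0.22).

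Against WT, the 10 genes were also all higher in both RepB+/- libraries, a separation found in 30.5% of genes tested. The median log2 fold change was 0.52 (1.43-fold), against 0.02 over all genes tested. By edgeR 8 of the 10 were called higher, all except Cep19 and Wdr53, where 9.12% of genes tested were called higher and 6.84% lower. The RepB+/- libraries had a part in the choice of the genes, so nothing is read from this count. Without WT replicate 2 the number called was 4, and without RepB+/- replicate 1 it was 5.

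The comparison of RepB-/- with WT uses wild-type libraries that had no part in the choice of the genes, but the rule favoured genes that are low in its RepB-/- libraries. Mfi2 was lower in both RepB-/- libraries than in both WT libraries, with a log2 fold change of -2.55 (SE 0.29, 95% interval -3.17 to -1.93). By edgeR it was the only gene of the 10 called, where 7.27% of genes tested were called higher and 5.49% lower, and nothing is read from this count either. The other 9 had log2 fold changes from -0.25 (Wdr53) to 0.40 (Nrros). Pak2 gave the narrowest interval of the 9, -0.38 to 0.06, and Wdr53 and Nrros gave wide ones, -0.70 to 0.20 and -0.04 to 0.84. The median over the 10 was -0.16, against 0.01 over all genes tested.

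**Figure D2:**
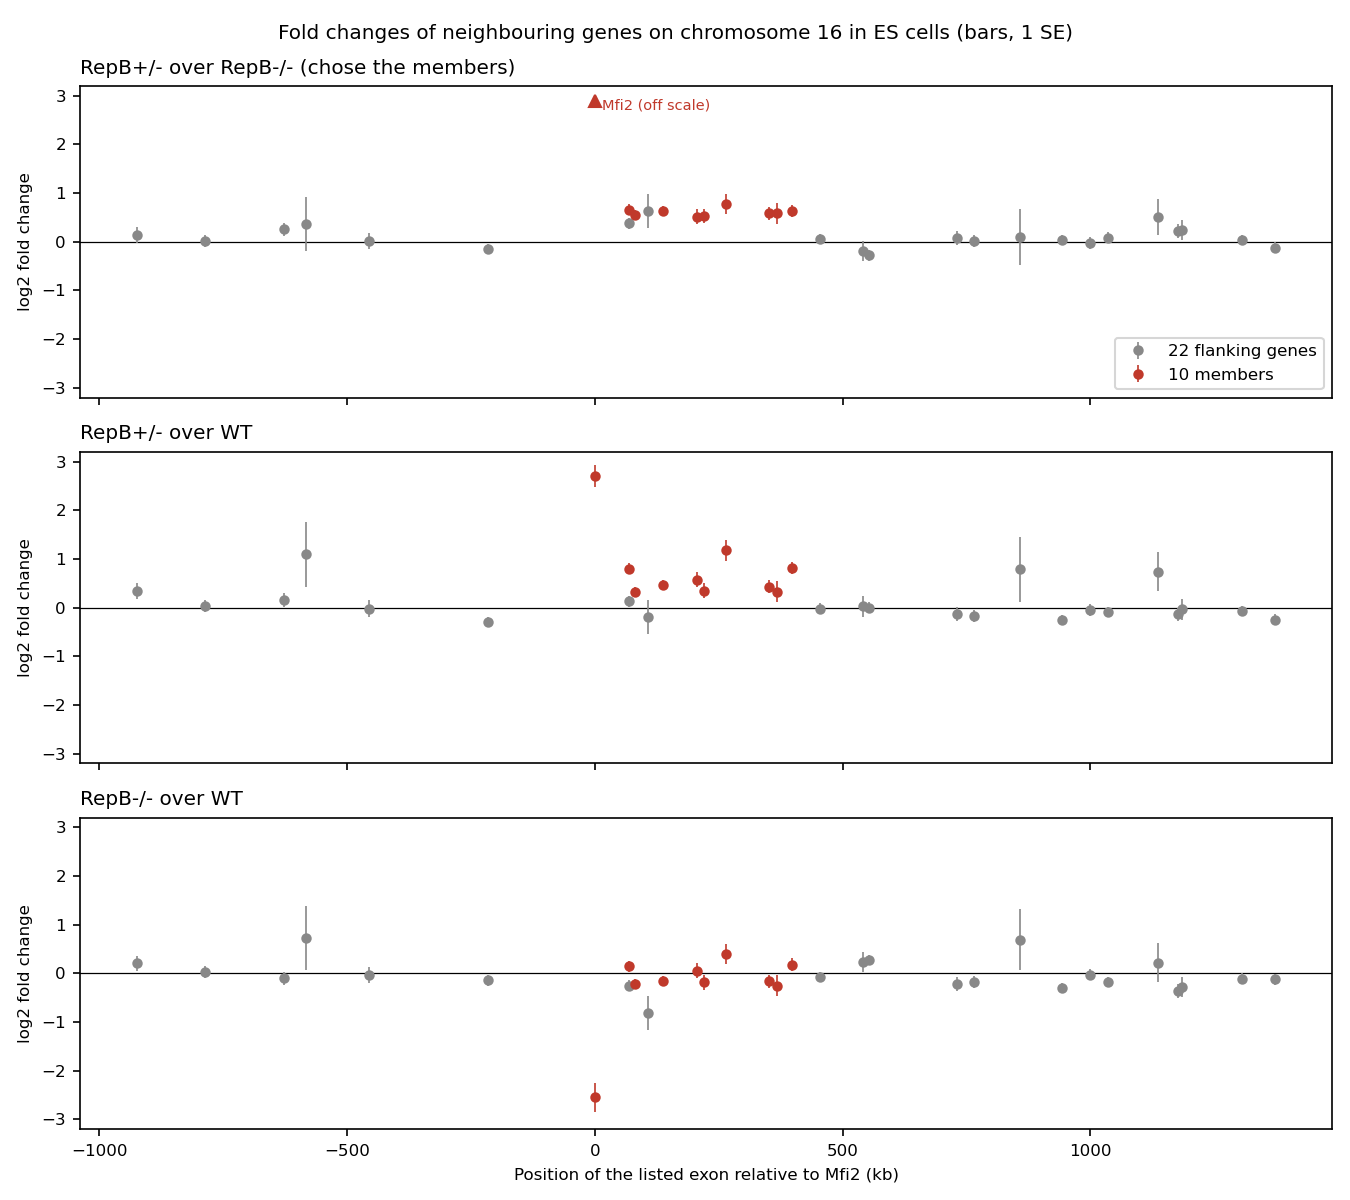
Log2 fold change (1 SE bars) of the 10 genes and of 22 flanking genes against distance in kb from the listed Mfi2 exon, for the 3 pairs of ES genotypes. In the upper 2 panels the 10 genes lie above 0 (Mfi2, at 5.26 in the first, is off the scale and marked by a triangle) while the nearest genes outside, Dlg1 and Ubxn7, lie between -0.29 and 0.06, and in the lowest panel Mfi2 lies at -2.55 and the other 9 lie between -0.25 and 0.40.

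Flanking genes were taken as controls: all genes within 1 Mb of the segment on either side and those lying between its genes. Of 34 in the tables, 22 passed the filter on low counts. With edgeR none of the 22 was called in RepB+/- against RepB-/- (2 at an unadjusted p below 0.05, and 0 by DESeq2), in RepB+/- against WT (4, and 1 by DESeq2) or in RepB-/- against WT (5, and 0 by DESeq2). Over all genes tested, the shares called higher and lower were 0.066% and 0.0198%, 9.12% and 6.84%, and 7.27% and 5.49%. With shares so low in the first comparison, 0 of 22 says little there. Without RepB+/- replicate 1, and without RepB+/- replicate 2, 1 flanking gene was called in RepB-/- against WT. Without RepB+/- replicate 2, 1 was called in RepB+/- against WT. Their median log2 fold changes were 0.07, -0.03 and -0.10 in the 3 comparisons. Their summed level was 1225 and 1214 CPM in WT, 1147 and 1121 in RepB+/-, and 1116 and 1121 in RepB-/-, whereas the 10 genes summed to 356 and 338, 520.0 and 552, and 318 and 332 CPM.

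At the edge before Mfi2 lay Dlg1, a scaffold protein gene whose listed exon starts 215 kb before that of Mfi2. With 1 exon listed per gene, this is not the gap between the 2 genes. Dlg1 had 166.0 and 169 CPM in WT, 143 and 130 in RepB+/-, and 153.0 and 150 in RepB-/-. Its log2 fold change in RepB+/- against RepB-/- was -0.15 (edgeR adjusted p = 0.893), and farther out Bdh1 had 0.02 (adjusted p = 0.993) and the weakly expressed Apod 0.37 (adjusted p = 0.962). At the edge after Rnf168, Ubxn7, a partner gene of the segregase p97, had 112 and 100.1 CPM in WT, 108 and 101 in RepB+/-, and 95.8 and 106 in RepB-/-, and its log2 fold change was 0.06 (adjusted p = 0.962). The next tested genes, Tctex1d2 (-0.20, adjusted p = 0.938) and the choline pathway gene Pcyt1a (-0.28, adjusted p = 0.609), were lower. The RepB+/- libraries of these 6 genes overlapped RepB-/- or lay below it except for Apod, which had 5 to 15 reads in them.

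Between the members, 6 further genes are listed, of which 0610012G03Rik and Gm15694 passed the filter. The first lies beside Ncbp2 and is transcribed away from it. It had 61.8 and 65.2 CPM in WT, 68.9 and 69.5 in RepB+/-, and 58.5 and 47.9 in RepB-/-. Both RepB+/- libraries were above the other 4, but the log2 fold change over RepB-/-, 0.38 (adjusted p = 0.411), was below the lowest of the 10, which was 0.51 for Pigx. Gm15694 had only 1.28 to 2.97 CPM, with a log2 fold change of 0.63 over RepB-/- (adjusted p = 0.826) and -0.19 over WT. Pigz, Bex6, Mir1946a and Smco1 did not pass the filter.

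**Figure D3:**
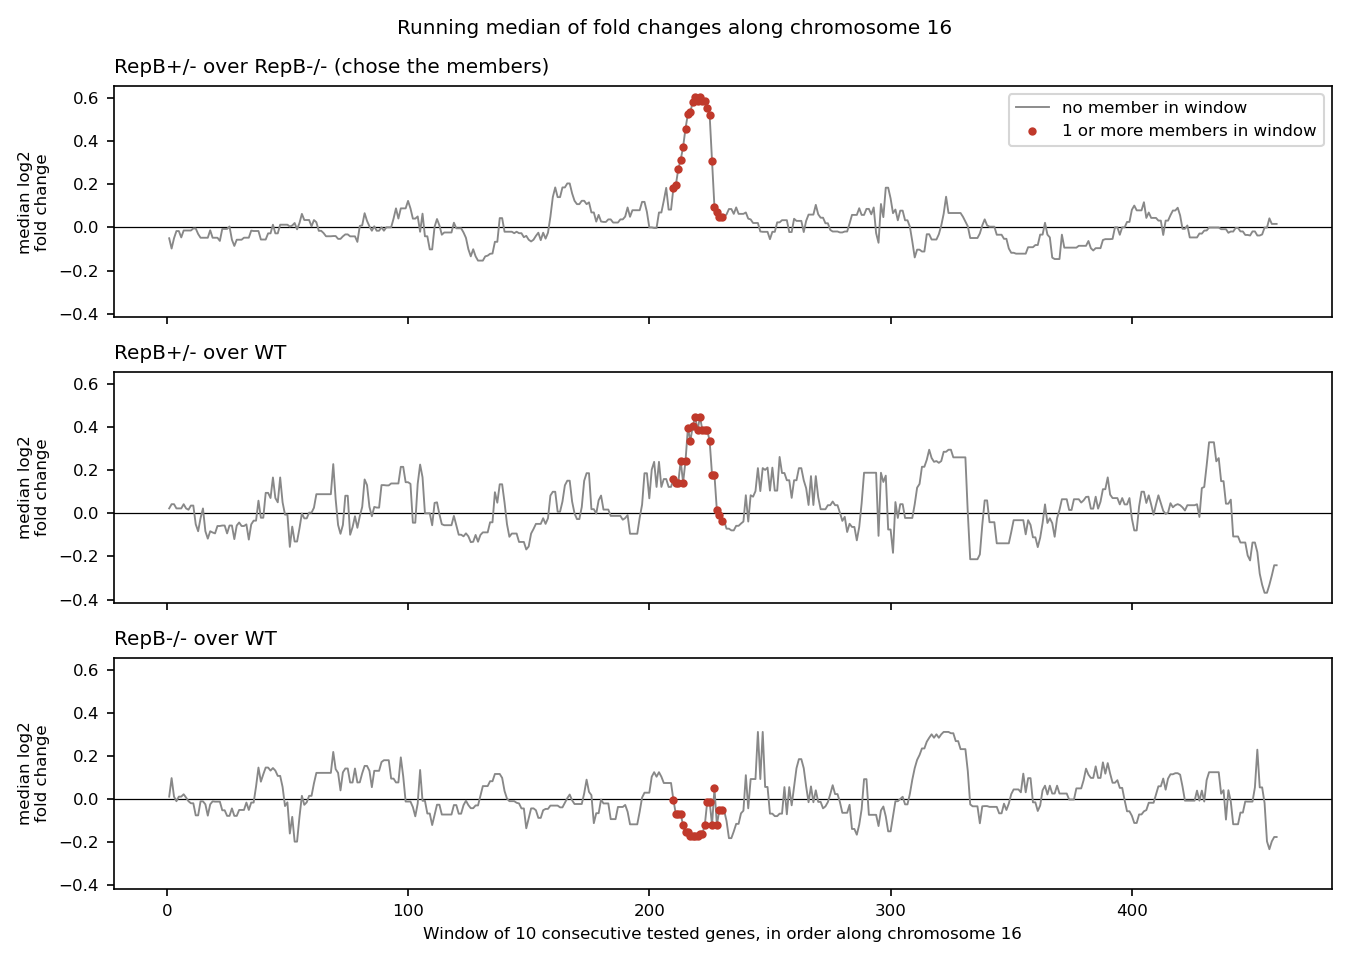
Median log2 fold change in windows of 10 consecutive tested genes along chromosome 16, in gene order, for the 3 pairs of ES genotypes (windows with a member as dots, others as a line). In RepB+/- over RepB-/- the windows with 8 or 9 members reach 0.61, while the median over 459 other genes of the chromosome is 0.00. That contrast chose the members, so nothing is read from this height.

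Across the autosomes, 14416 windows of 10 consecutive tested genes were compared. The highest median in RepB+/- against RepB-/-, 0.61, was that of the window from Mfi2 to Fbxo45, which held 8 of the 10 genes. Since this contrast chose the genes, nothing is read from that rank. Among windows without any of them the highest was 0.42, on chromosome 4, and the lowest -0.31. The highest window in RepB+/- against WT, at 2.12, lay on chromosome 4 and held none of the 10.

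The allele that reads came from was not used to choose the genes. In the ES cells nearly all reads over strain variants in the segment came from 129: over the 10 genes the 129 share was 97.4% and 95.3% in WT, 96.6% and 95.9% in RepB+/-, and 95.9% and 97.4% in RepB-/-. These ranges overlapped. The median over 361 other genes of chromosome 16 was 99.6% to 100.0% in these libraries. Enough allelic reads for a test were found for 7 genes, all but Nrros, Wdr53 and Rnf168. The ratio of 129 to CAST reads was called changed in 0 of 7 by edgeR in each comparison, with 0 at an unadjusted p below 0.05 and 0 by a likelihood ratio test, where 0.302% (RepB+/- against RepB-/-), 2.4% (RepB+/- against WT) and 2.43% (RepB-/- against WT) of 11597 genes were called. For Ncbp2, with 1409 reads from 129 and 59 from CAST over the 6 libraries, the log2 change in that ratio between RepB+/- and RepB-/- was -0.69 (SE 0.59). The precision was limited by the few CAST reads, which over the 6 libraries numbered 0 for Cep19, 1 each for Mfi2 and Pigx, and 2 for Pak2. With a 129 share near 100% over the rest of the chromosome too, the test could show little. Nothing is therefore read from 0 of 7.

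The level of 129 reads followed that of all reads. Since 129 reads are a part of the reads that chose the genes, nothing is read from that level, and they do not give independent values. Summed over the 9 genes without Mfi2, they had 32.3 and 32.0 CPM in WT, 41.7 and 43.7 in RepB+/-, and 31.5 and 28.5 in RepB-/-. CAST reads had 0.877 and 1.61, 1.72 and 2.33, and 1.35 and 0.777 CPM. The 129 sums were highest in RepB+/-. For CAST, the lower RepB+/- sum (1.72 CPM) lay close to the higher WT sum (1.61 CPM). The CAST sums rest on few reads, 17 to 50 per library over all 10 genes, so no difference between genotypes is read from them. The source of these few CAST reads was not tested. By gene, the 129 share over the 6 libraries was 100% for Cep19 and between 96.0% and 99.8% for Ncbp2, Senp5, Pak2, Pigx and Mfi2. It was lower for Fbxo45 (83.7%) and Rnf168 (77.5%). Wdr53 had 11 reads from 129 and 31 from CAST, and Nrros had 3 and 1.

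**Figure D4:**
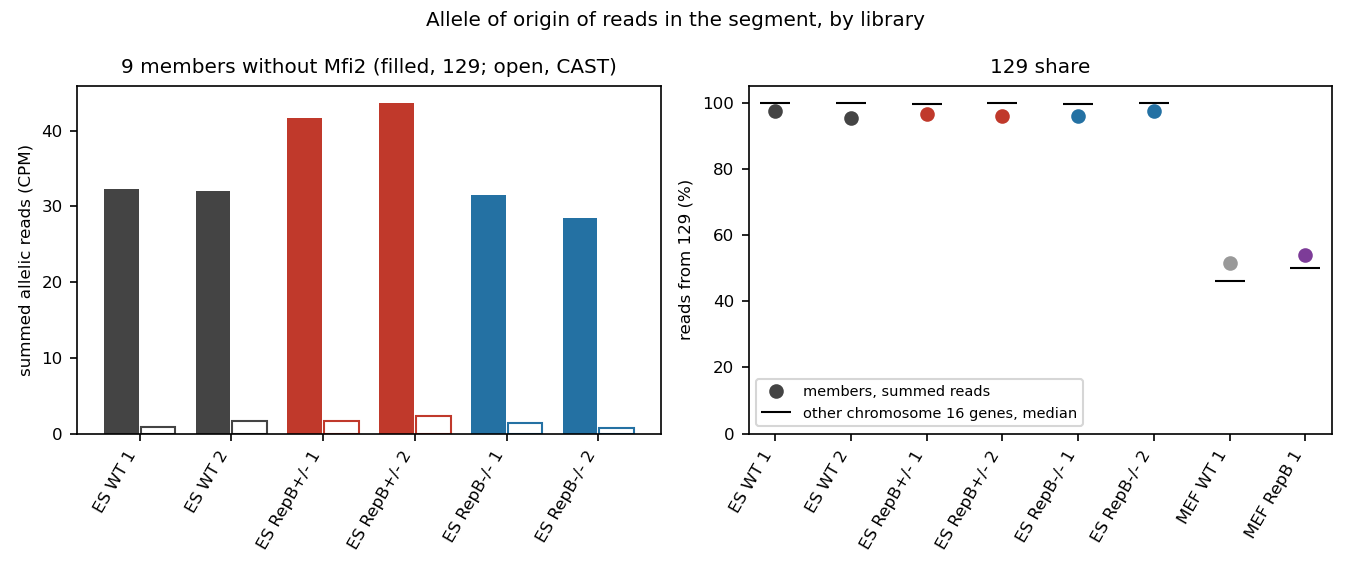
Left, reads of 9 members (all but Mfi2) from 129 (filled bars) and CAST (open bars) in CPM for each ES library. Right, percent of allelic reads from 129 over the 10 genes (dots) and the median over other chromosome 16 genes (dashes) in the 8 libraries, near 100 in ES cells and near 50 in MEF.

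In MEF the segment was expressed from both alleles, with 129 shares of 51.7% in the WT library and 54.1% in the RepB library, beside medians of 46.2% and 50.0% over 316 other genes of chromosome 16. There is 1 library per genotype, so no test was possible and intervals cover counting error only. Over the 9 genes with at least 1 CPM, the median log2 ratio of RepB to WT was 0.18, against 0.03 over 11672 genes and -0.05 over 18 flanking genes. None of the 9 was past 1.5-fold higher, where 11.8% of genes were, and 1 was past 1.5-fold lower, where 12.6% were. That gene was Nrros, with 16 and 13 reads and an interval from -2.23 to 0.10.

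Cep19 had the highest ratio in MEF, at 9.75 CPM in WT and 14.5 in RepB (log2 ratio 0.57, interval 0.25 to 0.90). Wdr53 had 6.47 and 9.18 CPM (0.50, interval 0.11 to 0.91), and Ncbp2 had 42.9 and 56.6 CPM (0.40, interval 0.25 to 0.56). For Rnf168 the levels were 46.4 and 53.5 CPM (0.20, interval 0.05 to 0.36), and for Senp5 39.1 and 44.3 CPM (0.18, interval 0.02 to 0.35). The intervals of these 5 lay above 0, as did those of 6 of 18 flanking genes and 33.4% of all genes, while those of 7 flanking genes lay below it, so the count says nothing particular about the 10. Those of Pak2 (0.07, at 89.0 and 93.7 CPM), Pigx (0.08, at 12.2 and 12.9 CPM) and Fbxo45 (0.13, at 16.5 and 18.0 CPM) included 0. Mfi2 had 0 reads in WT and 2 in RepB, at or under the floor of 3 counts, and no ratio is given. Macrophage markers summed to 19.8 and 10.1 CPM in MEF, with 4 of 7 at 0 in each library, beside 1.38 and 0.667 CPM of Nrros.

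**Figure D5:**
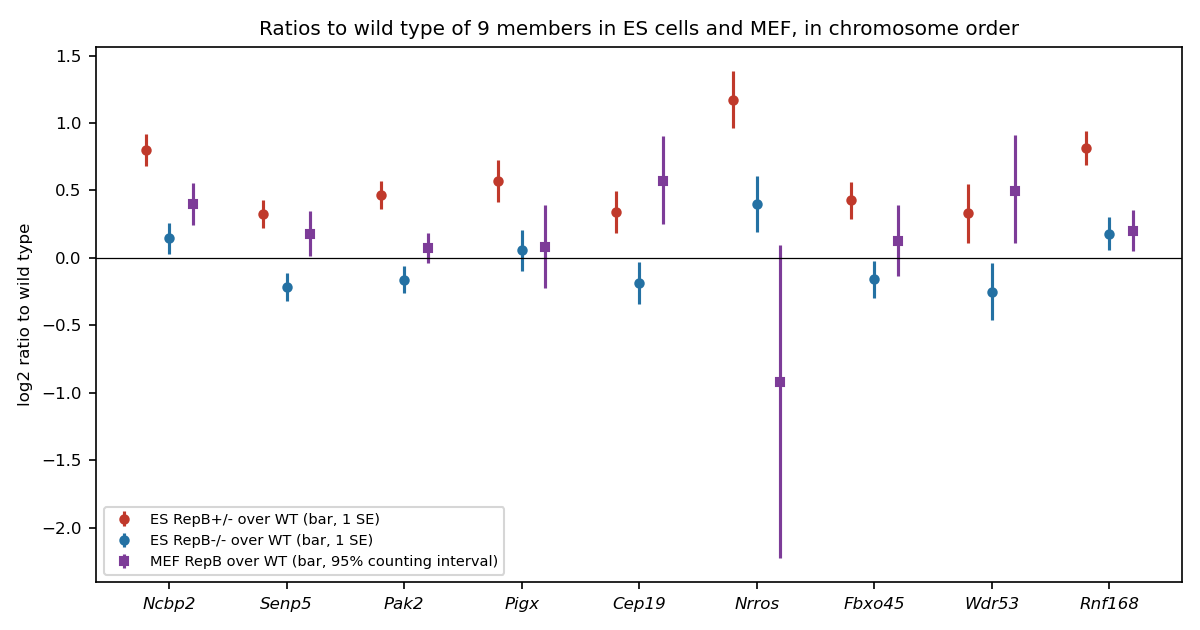
Log2 ratio to wild type of 9 genes (all but Mfi2) in chromosome order, for RepB+/- and RepB-/- ES cells (1 SE bars) and RepB MEF (95% counting intervals, 1 library each). RepB+/- lies above RepB-/- for each gene, and the MEF ratios run from -0.92 (Nrros) to 0.57 (Cep19).

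Genes elsewhere that act with or resemble the 10, such as other Senp, Pak and Pig genes, TGF-beta ligands, iron carriers and DNA break response genes, were listed as partners. Of 52 listed, 51 were in the tables and 49 were tested. Between RepB+/- and RepB-/- edgeR called 0 of 49 (3 at an unadjusted p below 0.05, and 0 by DESeq2), with a median log2 fold change of 0.04. Over all genes tested 0.066% were called higher and 0.0198% lower, so 0 of 49 says little. Against WT, 3 partners were called higher in RepB+/- and 4 in RepB-/-, and none was lower, with medians of 0.03 and -0.02. Over all genes tested, 9.12% and 7.27% were called higher, and 6.84% and 5.49% lower. Nothing particular to the partners is read from these counts. Trf, the transferrin gene, was at 6.76 and 5.09 CPM in WT, 20.2 and 21.2 in RepB+/-, and 24.9 and 19.7 in RepB-/-. It rose in both mutants, by 1.77 (SE 0.18, edgeR adjusted p = 2.76e-05) and 1.89 (SE 0.18, adjusted p = 1.34e-05) on the log2 scale, while its relative Mfi2 was higher in RepB+/- and lower in RepB-/-. Trf is also a gene of liver and yolk sac, and the summed endoderm markers given above were higher in both mutants too, with Afp at 103 and 95.5 CPM in WT, 333 and 296 in RepB+/-, and 283 and 239 in RepB-/-. Their part in the Trf values was not tested. The X-linked genes Pak3 (1.54, adjusted p = 0.0209, and 1.48, adjusted p = 0.0238, by edgeR) and Piga (0.71, adjusted p = 0.0241, and 0.64, adjusted p = 0.0414) were higher in RepB+/- and RepB-/-. Pak3 had only 19 and 5 reads in the WT libraries (0.98 and 0.42 CPM), so its fold changes are imprecise (SE 0.42 and 0.40). Tgfb3, which encodes a TGF-beta ligand, was higher in RepB-/- (0.58, edgeR adjusted p = 0.0117). In RepB+/- against WT, 1 partner was called without WT replicate 2 and 9 without RepB+/- replicate 2. In RepB-/- against WT, 1 was called without WT replicate 2 or without RepB-/- replicate 2, 2 without RepB-/- replicate 1, and 9 without either RepB+/- replicate.

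Outside the region, the genes whose levels over the 6 ES libraries most resembled the mean pattern of the 10 were Fgd5 (Pearson r 0.98), H3f3b, Gli1, Vrk1 and Vstm4 (each 0.97), out of 11419 genes averaging 5 CPM or more. These are the highest of many values over 6 points that share their libraries. Fgd5, an exchange factor gene of endothelial cells, had 22.4 and 24.2 CPM in WT, 30.0 and 30.5 in RepB+/-, and 19.9 and 21.7 in RepB-/-. Summed over 4 endothelial markers, the libraries had 307 and 338 CPM in WT, 285 and 297 in RepB+/-, and 234 and 241 in RepB-/-. This sum was higher in both RepB+/- libraries than in both RepB-/- libraries, as were its members Pecam1 and Cdh5, whereas Kdr and Tek overlapped. Unlike Fgd5 it was highest in WT, while Pecam1 had 51.0 and 55.5 CPM in WT, 86.9 and 81.2 in RepB+/-, and 66.8 and 61.8 in RepB-/-. Among the 7 genes outside the segment that edgeR called higher in RepB+/- than in RepB-/-, 3 are known from endothelium, and they are named here after their values were seen. The rest were the cardiac marker Myh7, and Trh, Zic2 and Lin28a, so the list is mixed. Plvap had 36.9 and 42.3 CPM in WT, 51.4 and 63.5 in RepB+/-, and 32.6 and 32.3 in RepB-/-. For Dll4 the log2 fold change over RepB-/- was 1.32 (SE 0.21), and for Sox18 it was 0.96 (SE 0.16). Their part in the values of Fgd5 and of the 10 genes was not tested.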

How the data were processed

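Poly(A) RNA was measured in 6 ES and 2 MEF libraries; the other 42 of 50 samples were not analysed here. The deposited tables hold the authors' whole-number read counts per gene (all reads, 129 reads, CAST reads), in featureCounts layout per the file headers, with the position of 1 exon per gene on mm9. The submitters' processing notes name TopHat, Novoalign and featureCounts among their tools. Versions, roles and the strand setting are not given in the sources used here, so reads of overlapping genes on opposite strands cannot be told apart.

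A single edgeR fit (version 4.0.16, R 4.3.3) covered all ES libraries (filterByExpr, minimum count 10 and minimum total 15; TMM; quasi-likelihood test; genotype as the only term), with calls below a Benjamini-Hochberg adjusted p of 0.05 across 15149 genes. The common biological coefficient of variation was 9.49%. Allele ratios were tested as an allele-by-genotype term with library as a block, for genes averaging 20 allelic reads. MEF ratios were taken from TMM-scaled CPM (prior count 2) for genes averaging 1 CPM, and 95% intervals for counting error. The scripts were tested on simulated counts. Promoter windows were searched with Python 3.11.15.

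The members, lists and tests were chosen with earlier results of these data known. Named by rule were the 10 members, the 3 nearest tested genes on each side, genes between members, up to 6 called partners per comparison and the 5 genes most alike in pattern. Alternatives were other scalings, DESeq2 1.42.0, no filter, a replicate block, fits to 4 libraries, and leaving out each library.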

Additional observations from a re-analysis of the deposited data

How the results depend on the processing

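All 10 genes stayed higher in RepB+/- than in RepB-/- and than in WT in all 12 alternative fits of the ES libraries (scaling, filter, test, replicate block, 4 libraries only, each library left out). The genes were chosen from these same libraries as higher in RepB+/- than in RepB-/-, so nothing is read from signs that did not change. Of 252 single-gene values in these fits and in RepB-/- against WT for Mfi2, 227 moved by less than the spread between replicates or kept their call, 25 moved and 0 changed sign. Leaving out 1 library gave medians of 0.56 to 0.62 over RepB-/- and 0.44 to 0.62 over WT, and with upper-quartile scaling the latter was 0.57. The number of members called higher over RepB-/- ranged from 1 to 7 (7 without a filter on low counts and with the replicate block, 5 with DESeq2, 1 with the 4 libraries alone), and over WT from 4 to 8. In MEF the median log2 ratio was 0.18 to 0.31.

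Flanking genes called in RepB-/- against WT were 1 without a filter, 3 with the replicate block, 1 with the 4 libraries alone and 0 to 1 with a library left out. In RepB+/- against WT they were 1 with the replicate block, 1 with DESeq2 and 0 to 1 with a library left out. Partner genes called in RepB-/- against WT were 8 without a filter, 11 with the replicate block, 2 with DESeq2, 9 with the 4 libraries alone and 1 to 9 with a library left out. In RepB+/- against WT they were 8 with upper-quartile scaling, 8 without a filter, 12 with the replicate block and 1 to 9 with a library left out. The cause of these shifts was not tested.

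Replicate numbers pair the libraries only as numbers: deviations of same-numbered libraries correlated across genes at 0.11 (WT and RepB+/-), 0.07 (WT and RepB-/-) and 0.19 (RepB+/- and RepB-/-). With the block Mfi2 was still the only member called in RepB-/- against WT. With 2 libraries per genotype and few CAST reads, small differences and allelic shifts were not detectable.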

Other observations

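Runs of at least 5 consecutive tested genes called in the same direction were counted over the genome, as values set beside the segment. No such run was found in RepB+/- against RepB-/-, where only 10 genes were called higher and 3 lower. The segment held 3 called genes, fewer than a run of 5 needs, so nothing is read from the absence. For RepB+/- against WT, 3 autosomal runs of 5 genes were higher and held none of the 10: Ackr1 to Ifi204 on chromosome 1 (median log2 fold change 1.24), Gm13152 to Gm13157 on chromosome 4 (2.14) and Apobec1 to Slc2a3 on chromosome 6 (1.65), the latter with the pluripotency genes Dppa3, Gdf3 and Nanog. Values of the similar zinc finger genes in the second are uncertain, as reads of like copies cannot be told apart. These runs were chosen after their values were seen.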
